A study of Homo sapiens with 3 samples.

Results

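The D-type cyclins, their kinases CDK4 and CDK6 and the inhibitors of these kinases were followed in cells labelled KG1a in which TRAF7 was depleted. The 10 genes were taken by symbol: CCND1, CCND2, CCND3, CDK4, CDK6, CDKN1A, CDKN1B, CDKN2A, CDKN2C and CDKN2D. All 10 were found among the 58735 Ensembl genes with a deposited value, and 9 of them reached the mean of 1 FPKM (reads scaled by exon length and library size) that the test required. Of the 3 libraries, 2 came from cells given a lentivirus with a short hairpin RNA against TRAF7, a RING-domain ubiquitin ligase (knockdown 1 and knockdown 2), and 1 from cells given the control hairpin virus (control). Knockdown and control cells are the same labelled line, and both received a virus. The labels do not say whether the knockdown libraries carry the same hairpin or come from separate cultures, and the spread behind the p-values may therefore be technical. The series title links TRAF7 to leukaemia growth through TWIST1 and P2RX1, and the comparison asked here is what depletion of TRAF7 did to the transcripts of this cell cycle switch.

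In the G1 phase, D cyclins accumulate in response to growth signals and bind CDK4 or CDK6, and the complex phosphorylates the retinoblastoma protein RB, which releases E2F transcription factors. INK4 inhibitors bind CDK4 and CDK6 and displace the cyclin. Cip/Kip inhibitors block CDK2 complexes and also take part in the assembly of cyclin D with its kinase. In blood progenitors, CDK6 and cyclins D2 and D3 are the members best known for driving proliferation, and cyclin D1 is usually associated with other tissues and with lymphoid and plasma cell cancers that carry a translocation at its gene.

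The libraries held 16221721 (knockdown 1), 16254461 (knockdown 2) and 16014485 (control) assigned reads. TRAF7 itself was at 15.6 and 18.3 FPKM in the knockdown libraries and 46.5 FPKM in the control (1091, 1338 and 3526 reads), or 33.6% and 39.4% of it. TRAF7 had a log2 fold change of -1.41 ± 0.19 (SE; limma adjusted p = 0.274, limma-voom adjusted p = 2.7e-05, both over all genes as below). Several markers went against the labelled line. CD34, the surface antigen for which KG1a is known, had 1 read in knockdown 1, 10 reads in knockdown 2 and 0 reads in the control. The other 5 of 6 blood progenitor markers averaged at least 1 FPKM, and the list summed to 115.4 and 115.9 FPKM in the knockdown libraries and 126.3 FPKM in the control. Of 11 stromal and epithelial markers, 4 averaged at least 1 FPKM: EPCAM, KRT8, KRT18 and KRT19. That list summed to 183.5, 178.4 and 168.0 FPKM in the same order, while its collagen and decorin genes stayed under 1 FPKM. Of 8 erythroid markers, 7 averaged at least 1 FPKM, and their sums were 238.1 and 209.2 FPKM in the knockdown libraries and 105.2 FPKM in the control, mostly from alpha- and gamma-globin (HBA1 alone at 90.2 and 74.8 FPKM in the knockdown libraries and 22.9 FPKM in the control). Lymphoid markers summed to 5.59, 6.81 and 7.33 FPKM, mostly from CD3D, with MS4A1 at 0 reads, and monocyte and granulocyte markers to 0.125, 0.201 and 0.447 FPKM, with ELANE at 0 reads. The cells are therefore called by their label only, and the part of the erythroid shift in the results below was not tested. In these bulk libraries, fewer cells with a transcript and less of it per cell cannot be told apart.

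Among the D cyclins, CCND1 was lower in both knockdown libraries, and CCND2 and CCND3 stayed near the control. CCND1 encodes cyclin D1 (ENSG00000110092, chromosome 11, positions 69641087 to 69654474, plus strand, GRCh38). It was at 4.23 FPKM in knockdown 1 (95% Poisson interval 3.78 to 4.72, 318 reads) and 4.30 FPKM in knockdown 2 (3.86 to 4.79, 338 reads), against 8.80 FPKM in the control (8.17 to 9.47, 718 reads). The knockdown libraries lay close together, both below the control, and their intervals did not reach that of the control. CCND1 was thus at 48.0% of the control in knockdown 1 and 48.9% in knockdown 2. On the log2(FPKM + 1) scale, the knockdown libraries differed from each other by 0.02 and from the control by 0.91 and 0.89. Intervals cover counting error only.

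CCND2 encodes cyclin D2 (ENSG00000118971, chromosome 12, positions 4273772 to 4305350, plus strand). It was at 9.64 and 9.78 FPKM in knockdown 1 and 2 (1074 and 1138 reads), against 9.28 FPKM in the control (1122 reads). All 3 Poisson intervals overlapped. CCND3, the gene of cyclin D3 (ENSG00000112576, chromosome 6, positions 41934933 to 42050357, minus strand), was the most abundant D cyclin per length. Its level was 45.0 FPKM in knockdown 1 (4065 reads) and 38.8 FPKM in knockdown 2 (3665 reads), against 39.8 FPKM in the control (3903 reads). Knockdown 1 lay above the control and knockdown 2 slightly below it, so the groups overlapped.

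**Figure D1:**
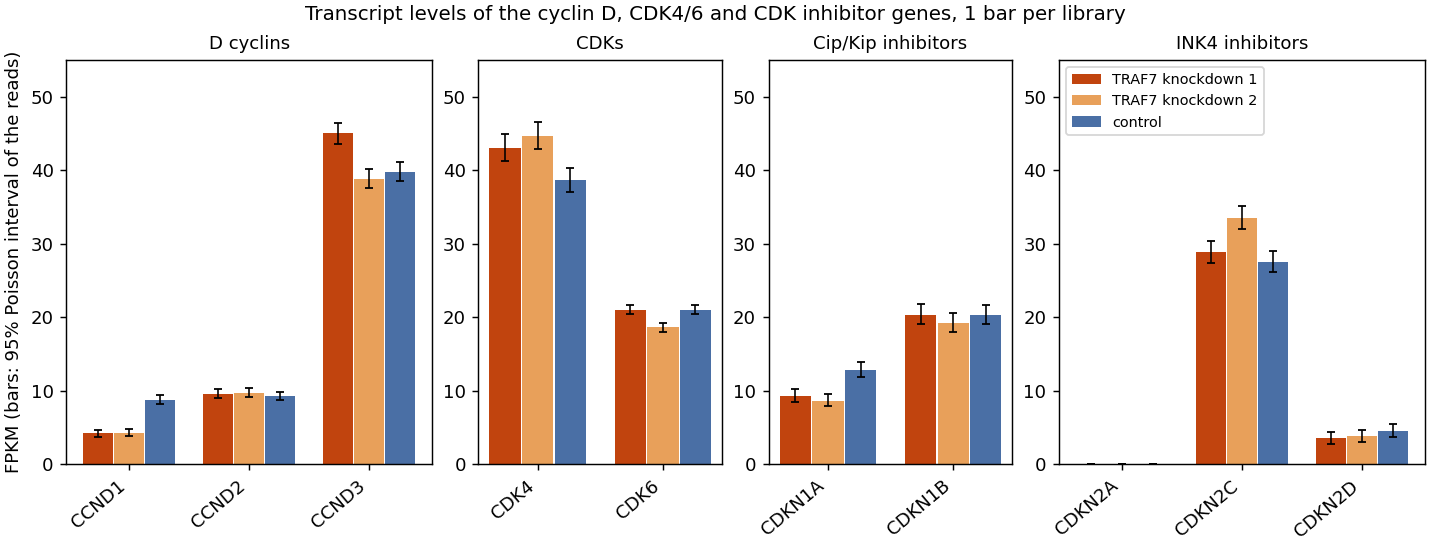
Transcript level in FPKM (vertical axis) of the 10 genes by class, with 1 bar for each library (knockdown 1, knockdown 2, control) and the 95% Poisson interval of its reads. CCND1 stood at 4.23 and 4.30 FPKM in the knockdown libraries and 8.80 FPKM in the control, CDKN1A at 9.31 and 8.69 against 12.9 FPKM, and CDKN2A had no reads in any library.

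The summed FPKM of the D cyclins was 58.9 in knockdown 1 and 52.9 in knockdown 2, against 57.9 in the control, so the control lay between the knockdown libraries. The make-up of that sum differed more. CCND1 made up 7.18% and 8.13% of it in the knockdown libraries and 15.2% in the control. CCND3 made up 76.4% and 73.4% in the knockdown libraries and 68.8% in the control, and CCND2 16.4%, 18.5% and 16.0%. These shares restate the levels above and are no further evidence. In knockdown 2 the share of CCND3 was higher although its level was not, at 38.8 FPKM against 39.8 FPKM in the control. The ratio of CCND3 to CCND1 was 10.6 and 9.03 in the knockdown libraries, against 4.53 in the control. These shares and ratios within a library do not depend on the scaling factor given to it.

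**Figure D2:**
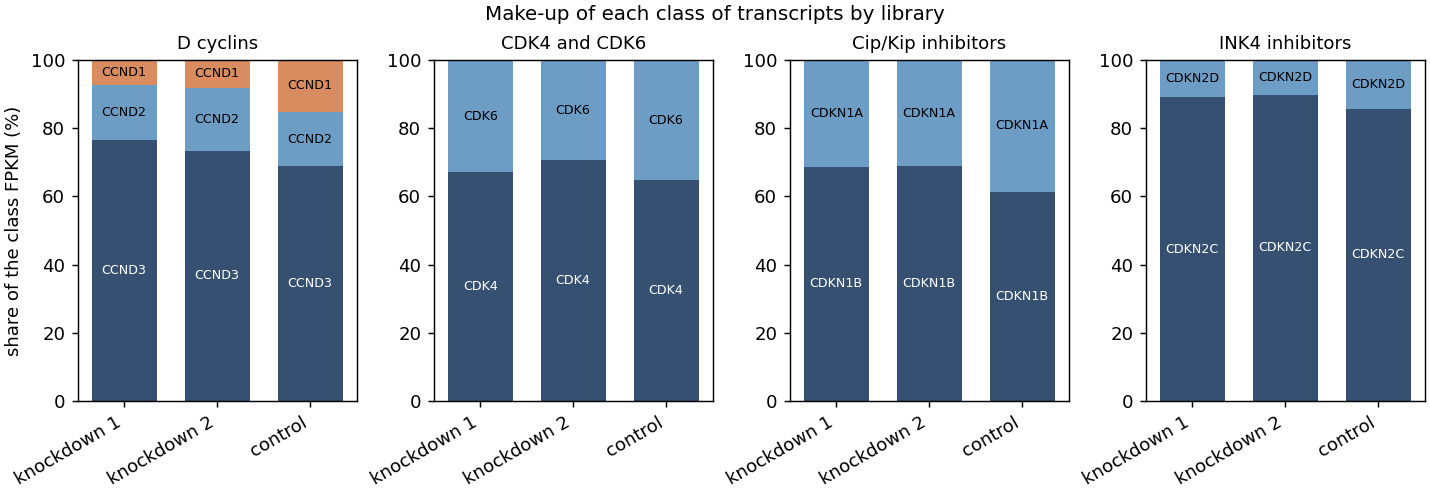
Share of each gene in the summed FPKM of its class (vertical axis, percent) in knockdown 1, knockdown 2 and control, 1 stacked bar per library. The share of CCND1 among D cyclins was 7.18% and 8.13% in the knockdown libraries and 15.2% in the control, and that of CDKN1A among CDKN1A and CDKN1B was 31.4% and 31.1% against 38.7%.

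CDK4 was slightly higher than the control in both knockdown libraries, a direction that turned to a log2 fold change of -0.01 under quantile normalization, and CDK6 was not higher in either. CDK4 (ENSG00000135446, chromosome 12, positions 57747727 to 57756013, minus strand) was at 43.1 FPKM in knockdown 1 (2123 reads) and 44.7 FPKM in knockdown 2 (2303 reads), against 38.7 FPKM in the control (2068 reads). These levels were 111.4% and 115.6% of the control. The Poisson intervals of the knockdown libraries, 41.2 to 44.9 and 42.9 to 46.6 FPKM, lay above the 37.0 to 40.4 FPKM of the control. The exons of CDK4 overlap those of TSPAN31, which lies on the other strand, over 1369 bases or 43.2% of their length. TSPAN31 had 252, 328 and 339 reads in knockdown 1, knockdown 2 and control. No source used here says whether counting used the strand, and without it reads from that stretch cannot be told apart.

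CDK6 (ENSG00000105810, chromosome 7, positions 92604921 to 92836594, minus strand) was at 21.1 FPKM in knockdown 1 (20.4 to 21.7, 4017 reads) and 18.6 FPKM in knockdown 2 (18.0 to 19.3, 3717 reads), against 21.1 FPKM in the control (20.4 to 21.7, 4361 reads). Knockdown 1 matched the control at 99.9% of its level, and knockdown 2 was at 88.5%. The spread between the knockdown libraries, 0.17 on the log2(FPKM + 1) scale, was as large as the distance of knockdown 2 from the control, also 0.17. CDK4 exceeded CDK6 per length by 2.05-fold and 2.40-fold in the knockdown libraries and 1.84-fold in the control.

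CDK4 is a textbook target of MYC, which binds the sequence CACGTG, so the upstream sequence of the members was searched for it. RefSeq start sites on GRCh38.p14 were available for 8 of the 10 genes, with 14 upstream windows of 250 bases; CCND1 and CCND2 were the other two. The search read both strands, and this motif is its own reverse complement. CACGTG stood in 3 of the 14 windows, 1 of CDK4 and 2 of CDKN2C. It was present in 6.34% of 35116 windows of the same length before RefSeq gene starts. CDK4 held it 3 times, and 0.0797% of the windows held it at least 3 times. The motif was chosen for CDK4, so this rarity is no test of it. The matches are shown because CDK4 and CDKN2C were among the members higher in both knockdown libraries under the deposited scaling. Genes picked for their direction cannot tie the motif to that direction. Under quantile normalization 0 members were higher in both. Capitals mark the motif, each line runs 5′ to 3′ on the strand of the gene, and the name gives the distance from the motif's first base to the start site.
CDK4, 216 bases before the start site, chr12:57752509-57752538, minus strand: atgtcaagcggtCACGTGtgatagcaacag
CDK4, 196 bases before, chr12:57752489-57752518, minus strand: atagcaacagatCACGTGgctgccatcgcc
CDK4, 101 bases before, chr12:57752394-57752423, minus strand: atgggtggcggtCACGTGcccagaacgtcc
CDKN2C, 220 bases before its first start site, chr1:50960513-50960542, plus strand: gattgtgcacctCACGTGgttagtcacaca
CDKN2C, 69 bases before its last start site, chr1:50970164-50970193, plus strand: ttgctgaataatCACGTGtgaatcgagggg
These matches are a description of the letters only. MYC transcript was at 35.6 and 36.5 FPKM in the knockdown libraries, against 31.5 FPKM in the control. Its fitted log2 fold change was 0.19 ± 0.17 (SE; limma adjusted p = 0.756), with an interval from -0.23 to 0.61 that spanned 0. In limma-voom with all assigned reads as library size, the log2 fold change of MYC was 0.09. Whether MYC acts on these genes was not tested. The E2F motif forms TTTCGCGC and TTTGGCGC and the cyclic AMP response element TGACGTCA had no match in the 14 windows, and stood in 0.439%, 0.550% and 1.65% of all windows. Motifs this rare are unlikely to occur in 14 windows of any genes, so their absence is uninformative. The GC box GGGCGG stood in 10 of the 14 windows and in 42.6% of all windows. The 14 windows held 45.6% to 80% GC, most of them above the median of 58% for all windows. Several belong to the same gene, and neither point was allowed for. The general E-box CANNTG, which includes CACGTG, stood in 8 of the 14 windows and in 61.8% of all windows.

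Of the Cip/Kip inhibitors, CDKN1A was lower in both knockdown libraries and CDKN1B was close to the control. CDKN1A encodes the protein p21, which stops the cycle after DNA damage (ENSG00000124762, chromosome 6, positions 36676460 to 36687339, plus strand). It was at 9.31 FPKM in knockdown 1 (8.46 to 10.2, 442 reads) and 8.69 FPKM in knockdown 2 (7.89 to 9.55, 431 reads), against 12.9 FPKM in the control (11.9 to 13.9, 662 reads). Both knockdown libraries lay below the control, at 72.4% and 67.6% of it, and the intervals did not overlap with that of the control. The knockdown libraries differed from each other by 0.09 on the log2(FPKM + 1) scale, and from the control by 0.43 and 0.52.

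CDKN1B encodes p27, which restrains CDK2 in resting cells (ENSG00000111276, chromosome 12, positions 12715058 to 12722371, plus strand). Its level was 20.4 FPKM in knockdown 1 (892 reads) and 19.3 FPKM in knockdown 2 (881 reads), against 20.4 FPKM in the control (967 reads). All 3 intervals overlapped. The ratio of CDKN1B to CDKN1A was 2.19 and 2.22 in the knockdown libraries and 1.58 in the control. Their relative CDKN1C, which encodes p57 and belongs to the list of other CDK inhibitors, was at 18.1 and 25.5 FPKM in the knockdown libraries and 22.3 FPKM in the control, on either side of it.

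Of the INK4 inhibitors, CDKN2C was the abundant one, CDKN2D was low, and CDKN2A was not detected. CDKN2C encodes p18 (ENSG00000123080, chromosome 1, positions 50960745 to 50974633, plus strand). It was at 28.9 FPKM in knockdown 1 (27.4 to 30.4, 1491 reads) and 33.5 FPKM in knockdown 2 (32.0 to 35.1, 1808 reads), against 27.6 FPKM in the control (26.2 to 28.97, 1544 reads). Both were above the control, at 104.8% and 121.6% of it, but the interval of knockdown 1 overlapped that of the control. The knockdown libraries differed by 0.21 on the log2(FPKM + 1) scale, against a fitted difference of 0.17 from the control. CDKN2D encodes p19 of the INK4 family (ENSG00000129355, chromosome 19, positions 10566462 to 10569059, minus strand). It was at 3.55 FPKM in knockdown 1 (83 reads) and 3.81 FPKM in knockdown 2 (93 reads), against 4.57 FPKM in the control (116 reads). Both knockdown values were lower, at 77.6% and 83.2% of the control, and all 3 intervals overlapped.

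**Figure D3:**
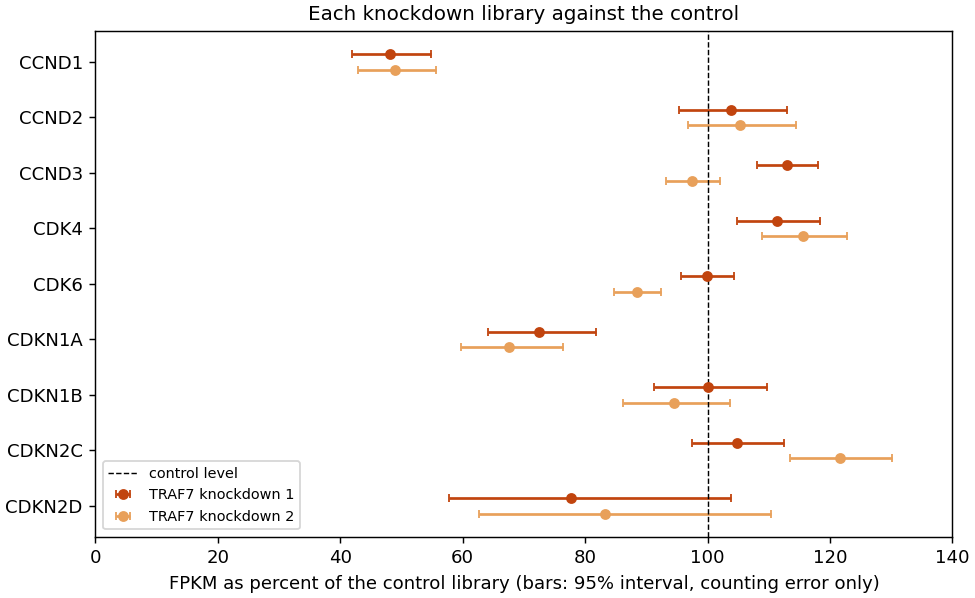
FPKM of 9 genes in each knockdown library as a percent of the control library (horizontal axis), with exact 95% intervals that cover counting error only; the dashed line marks the control. CCND1 stood at 48.0% and 48.9%, CDKN1A at 72.4% and 67.6%, and CDK4 at 111.4% and 115.6% (below the control in the fit under quantile normalization), while CCND3 fell on both sides of the line.

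CDKN2A, whose transcripts encode p16 and ARF (ENSG00000147889, chromosome 9, positions 21967753 to 21995301, minus strand), had 0 reads in each of the 3 libraries. A count of 0 allows up to 3 reads, or 0.0445 FPKM in knockdown 1, 0.0426 FPKM in knockdown 2 and 0.0410 FPKM in the control. CDKN2B, the neighbouring INK4 gene that encodes p15, also had 0 reads in all 3. The surrounding genes were examined after this was seen. Of 22 other genes within 500 kb of CDKN2A, 21 had 0 reads in all 3 libraries, and the remaining 1, an antisense locus, had 1 read in knockdown 2. The 5 protein-coding genes among them were all at 0, including MTAP, a methionine salvage enzyme that most cell types express. Of all genes 51.8%, and of all protein-coding genes 23.1%, had 0 reads in all 3 libraries.

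The nearest protein-coding genes averaging 1 FPKM or more were ACER2 on the side of lower coordinates and CAAP1 on the other, 7.39 Mb apart. The stretch was bounded by expression, so the protein-coding genes inside it average under 1 FPKM by definition. The 23.1% of all protein-coding genes is therefore no background for it. Of 29 protein-coding genes between them, 25 had 0 reads in all 3 libraries, CDKN2A and CDKN2B included. The others were MLLT3, FOCAD, KLHL9 and ELAVL2, with at most 17, 61, 1 and 1 reads in a library. The genes at 0 include IFNB1, IFNW1, IFNE and the IFNA genes, a cluster of related interferon genes. Much of the count therefore comes from 1 gene family. ACER2 only just met the cut, at 1.15 and 1.02 FPKM in the knockdown libraries and 0.90 FPKM in the control. CAAP1 was at 12.1 and 12.2 FPKM in the knockdown libraries and 10.6 FPKM in the control. Whether the DNA is present was not tested, because the files hold transcript levels only.

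**Figure D4:**
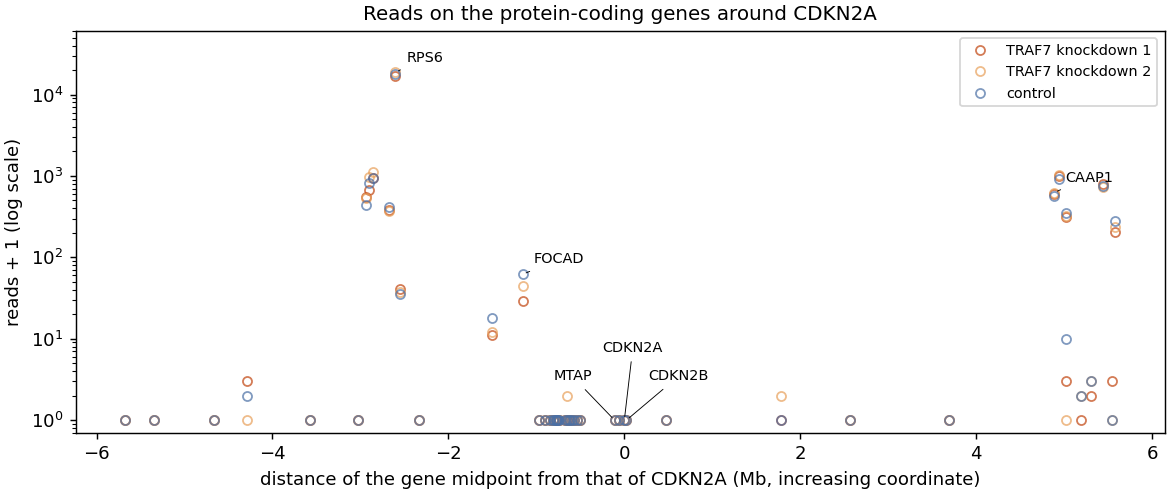
Reads plus 1 (log scale) on protein-coding genes within 6 Mb of CDKN2A, by the distance of each gene's midpoint from that of CDKN2A, with 1 symbol for each library. MTAP, CDKN2A and CDKN2B lie at 0 reads in all 3 libraries, and genes with many reads stand on either side, such as RPS6 on the left and CAAP1 on the right.

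The order of the 10 levels was close to the same in all libraries. CDK4 and CCND3 were the top pair in every library; CDK4 came first in knockdown 2, and CCND3 in the other two libraries, where their intervals overlapped. CDKN2C was next. CDK6 and CDKN1B followed, with overlapping intervals in each library, and then CDKN1A and CCND2, of which CDKN1A was the higher in the control and CCND2 the higher in both knockdown libraries. The CDKN1A and CCND2 intervals overlapped in knockdown 1 and knockdown 2, but not in the control. CCND1 was eighth in each library and CDKN2D next, a pair whose intervals overlapped in the knockdown libraries and not in the control, where that of CCND1 overlapped that of CCND2 instead. The inhibitors summed to 62.1 and 65.3 FPKM in the knockdown libraries and 65.4 FPKM in the control. The D cyclins summed to 0.948 and 0.811 of the inhibitors in the knockdown libraries and 0.886 in the control, so this ratio did not separate the groups.

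Across the 12640 genes averaging 1 FPKM or more, limma with intensity trend on log2(FPKM + 1) called 0 of the 9 members tested at an adjusted p of 0.05, and 0 of 12640 genes in all (0%). At an unadjusted p under 0.05 it held 2 members, CCND1 and CDKN1A, and 1161 genes in all (9.19%). The fitted log2 fold change of CCND1 was -0.90 ± 0.17 (SE; limma adjusted p = 0.403). CDKN1A had a fitted value of -0.47 ± 0.18 (limma adjusted p = 0.526). The fit has 1 residual degree of freedom, from the knockdown pair, and the lone control is assumed to vary as they do. Its 95% intervals ran from -1.32 to -0.47 for CCND1 and from -0.91 to -0.03 for CDKN1A, before any adjustment for the number of genes.

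The intervals of the other members were wide and spanned 0. For CCND2 the fitted log2 fold change was 0.06 (95% interval -0.37 to 0.49), and for CCND3 it was 0.07 (-0.38 to 0.52). CDK4 had 0.18 (-0.23 to 0.59) and CDK6 -0.08 (-0.54 to 0.37). CDKN1B had -0.04 (-0.47 to 0.40), CDKN2C 0.17 (-0.29 to 0.63) and CDKN2D -0.25 (-0.70 to 0.20). Only the intervals of CCND1 and CDKN1A excluded 0, and these are not adjusted for the number of genes.

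In limma-voom on whole reads recovered from the FPKM values, with the library sizes that the deposited scaling implies, CCND1 was called lower (log2 fold change -1.04, adjusted p = 0.0106 over 15034 genes). It was the only 1 of 9 members called, where 130 of all genes were called (0.865%), 31 higher and 99 lower (the lower ones 0.659%). CDKN1A had -0.51 with a limma-voom adjusted p of 0.315. With all assigned reads as library sizes, limma-voom called 0 members and 0 of 15034 genes (0%; 1141 at an unadjusted p under 0.05), and the adjusted p of CCND1 was 0.607 at a log2 fold change of -1.15. The call of CCND1 therefore depends on the scaling, while it was lower in every setting run. TRAF7, the targeted gene, was likewise not called by limma-voom with all assigned reads, at a log2 fold change of -1.56.

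By sign alone, 3 of the 9 members were higher than the control in both knockdown libraries (CCND2, CDK4 and CDKN2C), against 42.5% of all genes tested, and 4 were lower in both (CCND1, CDK6, CDKN1A and CDKN2D), against 30.8%. CDK6 is counted as lower although knockdown 1 was at 99.9% of the control, close to a tie. Under quantile normalization 0 members were higher in both and 6 lower, where 4884 of all 12640 genes were higher and 4271 lower. Under scaling to all assigned reads 1 was higher and 6 lower, CCND2 turning to the lower side, where 3772 of all genes were higher and 5519 lower. The members' median log2 fold change was -0.04, and that of all genes tested was 0.04. By size, CCND1 was the only member at or under 50% of the control in both knockdown libraries, where 140 of 12640 genes were (1.11%). CDKN1A joined it at 75% of the control, where 866 genes were (6.85%). These cuts were chosen after the values were seen.

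Among the 3 protein-coding genes whose pair of log2 differences lay nearest to that of CCND1, of 9896 compared over 3 libraries, were IDUA and CCDC136. IDUA, which encodes a lysosomal iduronidase, was at 2.63 and 2.64 FPKM in the knockdown libraries and 5.54 FPKM in the control. CCDC136 was at 2.76 and 2.95 FPKM against 5.88 FPKM in the control. Their distances from CCND1 were 0.07 for IDUA and 0.09 for CCDC136 on the log2(FPKM + 1) scale. The antisense neighbour LTO1, whose exons overlap 10.3% of those of CCND1, had 378, 369 and 378 reads in knockdown 1, knockdown 2 and control.

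Downstream of the cyclin D kinases, more of the measured E2F and CDK2 genes were higher than lower in both knockdown libraries, as was so of all genes tested (42.5% higher and 30.8% lower; 46.5% and 27.8% of protein-coding genes), and none passed the test. Of 13 RB and E2F genes, all measured, 8 were higher in both and 4 lower (0 passed by limma and 0 by limma-voom). Their median log2 fold change was 0.14, against 0.04 for all genes tested. That background was higher, at 0.06, for protein-coding genes, and 0.11 for genes averaging at least 5 FPKM, so little of the 0.14 is particular to this list. Scaling to all assigned reads lowers the knockdown libraries relative to the control for every measured gene. With it, 6 of the 13 were higher and 4 lower, where 3772 of all 12640 genes were higher and 5519 lower. E2F1, the activating factor that RB restrains, was at 17.8 and 13.9 FPKM in the knockdown libraries and 10.4 FPKM in the control (log2 fold change 0.55 ± 0.21, SE). Its dimer partner TFDP1 was at 39.1 and 33.4 FPKM against 26.2 FPKM in the control. The repressor E2F8 was at 4.75 and 4.52 against 3.48 FPKM, and E2F2 at 8.67 and 7.45 against 6.52 FPKM. RB1, the gene of RB, was at 5.43 and 4.83 FPKM in the knockdown libraries and 5.66 FPKM in the control, so it was transcribed in all 3 libraries.

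Of 9 measured genes of CDK2, its cyclins, CDC25A, WEE1 and the CDK-activating kinase, 7 were higher in both knockdown libraries and 0 lower, beside the 42.5% and 30.8% of all genes (median log2 fold change 0.21; 0 passed by limma and 0 by limma-voom). CDC25A, the phosphatase that activates CDK2, was at 21.3 and 19.1 FPKM in the knockdown libraries and 12.8 FPKM in the control (0.61 ± 0.18, SE). CCNA2, the gene of cyclin A2, was at 86.4 and 89.0 FPKM against 64.6 FPKM, CDK2 at 25.8 and 21.2 against 18.5 FPKM, and MNAT1, an assembly factor of the CDK-activating kinase, at 4.90 and 5.08 against 4.02 FPKM. CCNA1 had 0 reads in all 3 libraries. Under scaling to all assigned reads 6 of these 9 were higher and 1 lower, where 3772 of all 12640 genes were higher and 5519 lower.

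**Figure D5:**
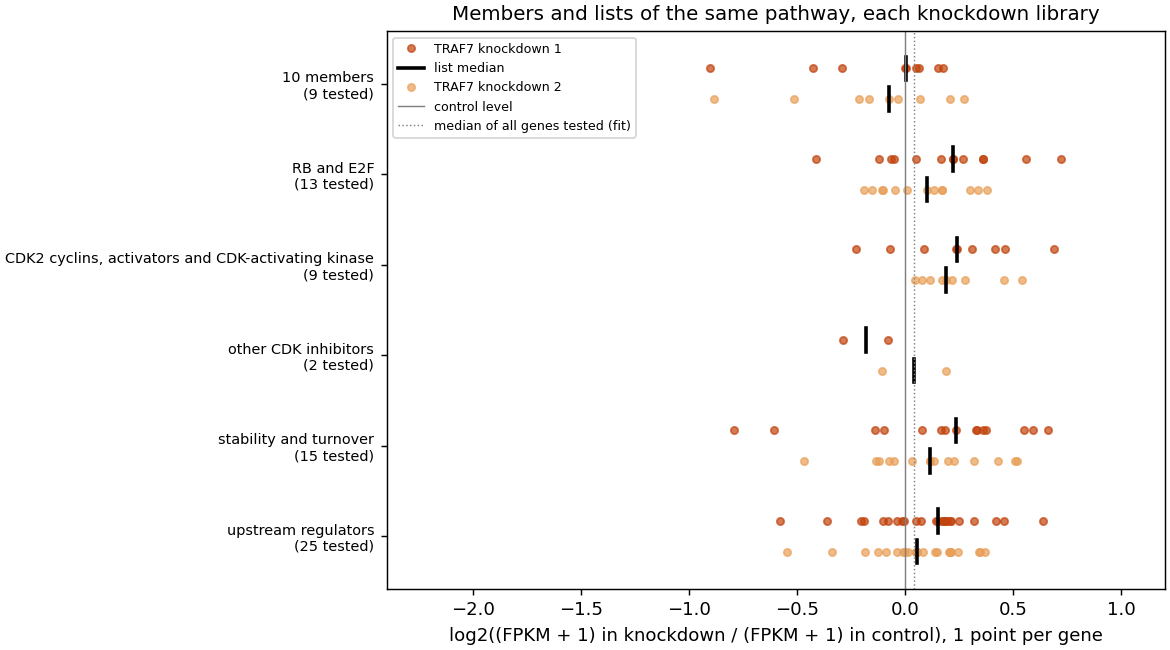
Difference of each gene from the control on the log2(FPKM + 1) scale (horizontal axis) in knockdown 1 and knockdown 2, for the 9 members tested and for 5 lists of the same pathway, with list medians as black bars and the fitted median of all genes tested, 0.04, as a dotted line. CCND1 is the member farthest below the control, and the RB and E2F, CDK2 and turnover lists have 8 of 13, 7 of 9 and 10 of 15 genes above it in both knockdown libraries, against 42.5% of all genes (6, 6 and 8 under scaling to all assigned reads, where 3772 of all 12640 genes are).

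Of 15 measured genes that act on the stability of D cyclins, CDKs and p27, 10 were higher in both knockdown libraries and 4 lower, beside the same 42.5% and 30.8% of all genes. Their median log2 fold change was 0.18 (0 passed by limma and 0 by limma-voom). SKP2, the ubiquitin ligase subunit that marks p27 for degradation, was at 22.4 and 21.2 FPKM in the knockdown libraries and 14.5 FPKM in the control (0.55 ± 0.18, SE). RBX1, the RING subunit of the same ligase, was at 20.2 and 18.1 against 12.4 FPKM. CDC37, the cochaperone that loads CDK4 and CDK6 onto HSP90, was at 123.3 and 104.9 against 84.1 FPKM. FBXW8, an F-box protein reported to act on cyclin D1, ran the other way, at 2.45 and 3.32 FPKM against 4.98 FPKM in the control (-0.63 ± 0.22, SE). Under scaling to all assigned reads 8 of the 15 were higher and 4 lower, where 3772 of all 12640 genes were higher and 5519 lower.

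Of 25 measured upstream regulators, 14 were higher in both knockdown libraries (56%, against 42.5% of all genes and 46.5% of protein-coding genes) and 5 lower. Their median log2 fold change was 0.09, against 0.06 for protein-coding genes and 0.11 for genes averaging at least 5 FPKM. By limma 0 passed, and 0 by limma-voom. With scaling to all assigned reads, 8 of the 25 were higher and 7 lower, where 3772 of all 12640 genes were higher and 5519 lower. The 4 with the lowest p were TWIST1, KLF6, STAT3 and LEF1. TWIST1, which the series title names, was at 1.58 and 1.63 FPKM in the knockdown libraries and 2.86 FPKM in the control. KLF6, which induces CDKN1A, was at 16.3 and 14.02 against 11.97 FPKM, and STAT3 at 28.9 and 26.6 against 23.0 FPKM. LEF1, a nuclear partner of beta-catenin that acts on CCND1, was at 6.04 and 6.92 FPKM against 5.25 FPKM in the control. Of the 3 other CDK inhibitors, CDKN2B had 0 reads, CDKN1C lay on both sides of the control, and CDKN3 was at 5.11 and 4.99 against 5.45 FPKM. None passed by limma or limma-voom.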

How the data were processed

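RNA of 3 libraries was sequenced, 2 of TRAF7 knockdown and 1 of control cells. The authors deposited FPKM values for 58735 Ensembl genes per library, per the file headers. Per the submitters' processing notes, BWA, Bowtie and hg19 were used; roles, versions and the counting tool are not given in the sources used here. All identifiers matched GENCODE release 29, which gave symbols, exon lengths and GRCh38 positions; the files themselves hold no coordinates. Multiplied by exon length, 100% of the nonzero deposited FPKM values were whole reads once divided by the library's step (tolerance 0.05 of a read), so reads were recovered. The step implies library sizes proportional to median-of-ratios factors (0.963, 1.01 and 1.04 for knockdown 1, knockdown 2 and control), so the deposited values already carry that scaling.

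Genes averaging 1 FPKM or more were transformed to log2(FPKM + 1) and tested with limma 3.58.1 (R 4.3.3, intensity trend), Benjamini-Hochberg adjusted over all of them at a threshold of 0.05; the fit was checked on simulated data. Fold changes on that scale understate the change of low genes. Alternatives were other scalings, filters and pseudocounts (0.1, 0.5 and 5), no trend, each knockdown library alone, and limma-voom on recovered reads (mean of at least 10). limma-voom with all assigned reads and protein-coding genes alone were added after the data were seen. Level intervals are exact Poisson and ratio intervals exact conditional binomial at 95%; floors are 3 reads. Named genes were the members, TRAF7, up to 4 genes of lowest p in each list, and the 3 genes nearest to CCND1, of which 1 is not reported here; the other genes named were chosen after their values were seen. Members and lists were chosen with earlier results of these data known. Promoter sequences are from RefSeq, GRCh38.p14.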

Additional observations from a re-analysis of the deposited data

How the results depend on the processing

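CCND1 was lower in the knockdown libraries in all settings run, with log2 fold changes between -1.15 and -0.57, and its adjusted p ranged from 0.0106 to 0.649. It passed only in limma-voom with the deposited scaling (-1.04). CCND3 turned from higher to lower under quantile normalization (-0.11), scaling to all assigned reads (-0.035), limma-voom with all assigned reads as library size (-0.036) and without knockdown 1 (-0.036, against 0.17 without knockdown 2). CCND2 turned under scaling to all assigned reads (-0.037) and in limma-voom with those sizes (-0.041), CDK4 under quantile normalization (-0.0082), CDKN1B without knockdown 2 (0.000944, against -0.076 without knockdown 1), and CDKN1C without knockdown 1 (0.19, against -0.29 without knockdown 2). The cause was not tested. Members past the threshold numbered 0, and 1 in limma-voom with the deposited scaling. Members higher in both libraries numbered 3, and 2 under median-of-ratios rescaling, 0 under quantile normalization, 1 under scaling to all assigned reads and 1 in limma-voom with those sizes; those lower in both numbered 4, and 5, 6, 6 and 6 in these settings, and 3 at a mean of at least 5 FPKM, which CDKN2D does not reach. With a single knockdown library, 3 to 5 were higher than the control and 4 to 6 lower. Of all genes, 0 were called, and 3 at a mean of at least 5 FPKM, 130 in limma-voom and 13 among protein-coding genes alone. The median of all genes was 0.01 in limma-voom with the deposited scaling and -0.09 with all assigned reads as library size. CDKN2A gave no value in any setting. No paired analysis was possible because the control group has 1 library and the labels give it no replicate number. Of the 9 members tested, CDKN2D had the fewest reads, 83 to 116.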
